A study of Mus musculus with 12 samples.

Results

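The 9 transcription factors described here build the early pancreatic epithelium or the foregut endoderm from which it grows, namely Pdx1, Sox9, Hhex, Nkx6-1, Onecut1, Foxa1, Foxa2, Foxa3 and Hnf4a. They were measured in 12 embryonic mouse pancreata, each on its own Affymetrix mouse whole-genome array. Every probe set that carries 1 of these symbols and no other was taken, which gave 16 of the 45037 probe sets tested. Hnf4a has 4 of them, Sox9 has 3, Pdx1 and Onecut1 have 2 each, and the other 5 genes have 1 each. The E14.5 pancreata were 4 β-catenin KO and 2 wildtype, and the E16.5 pancreata were again 4 β-catenin KO and 2 wildtype. KO embryos were Pdx1Cre/+; beta-cateninflox/flox, with Cre driven by Pdx1 and LoxP sites around part of the β-catenin gene. All embryos came from intercrosses of Pdx1Cre/+; beta-cateninflox/+ mice, and whether the wildtype embryos carried Cre is not given in the sources used here. Recombination is therefore limited to cells that have expressed Pdx1 Cre, the study considers Cre expression likely to be mosaic, and nerve, vessel, blood and mesenchyme cells of the dissected organ keep the gene. The targeted gene, Ctnnb1, was at a mean ratio of 0.678 to 1.21 in the KO over its 3 probe sets and both days, and limma called none of these (adjusted p = 0.152 to 0.920). Whether these probe sets lie in the part between the LoxP sites was not established, so the values do not measure the deletion.

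The deposited values are ratios. The authors divided each signal by the average of both wildtype pancreata of its day, so that 1 is the wildtype average. Such a ratio holds no abundance. Neither the level of a factor, nor its course between the days, nor the presence of the markers that define pancreas can be read from it. A call below means an adjusted p under 0.05 in limma, a linear model that shares the estimate of the variance across probe sets, and the adjustment of p covers every probe set tested. In whole organs, fewer cells of a type and less RNA per cell cannot be told apart.

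These factors act in an order and in loops. FOXA proteins are forkhead factors that open chromatin in early endoderm, and HNF4A is a nuclear receptor that keeps liver, gut and pancreas epithelium in their fates. HHEX is needed for the ventral pancreatic bud, ONECUT1 acts upstream of PDX1 and of endocrine and duct fates, SOX9 maintains the progenitor pool and later marks ducts, and PDX1 and NKX6-1 are shared by progenitors and beta cells. Many of them bind the control regions of one another.

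At E16.5 Foxa3 and Hnf4a fell in the KO and the other 7 genes were not called. The called probe sets were 3 of 16, all lower, against 1.82% of all probe sets called lower at that day (2.62% in either direction). At E14.5 limma called 0 of 16, against 0.0111% of all, with 3 at an unadjusted p under 0.05 (Sox9, Hhex and Onecut1, on 1 probe set each, all lower), as had 6.86% of all. Without adjustment 5 of 16 had such a p at E16.5, against 16.6% of all. Lower values in the KO were seen for 12 of 16 probe sets at each day, against 44.6% of all on the earlier day and 43.9% on the later. Their log2 fold changes had a median of -0.23 on the earlier day and -0.38 on the later one, against 0.02 and 0.03 over all probe sets. The change of the KO effect between the days was called for 0 of 16, against 0.349% of all, and had an unadjusted p under 0.05 for 4, against 10.4% of all.

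**Figure D1:**
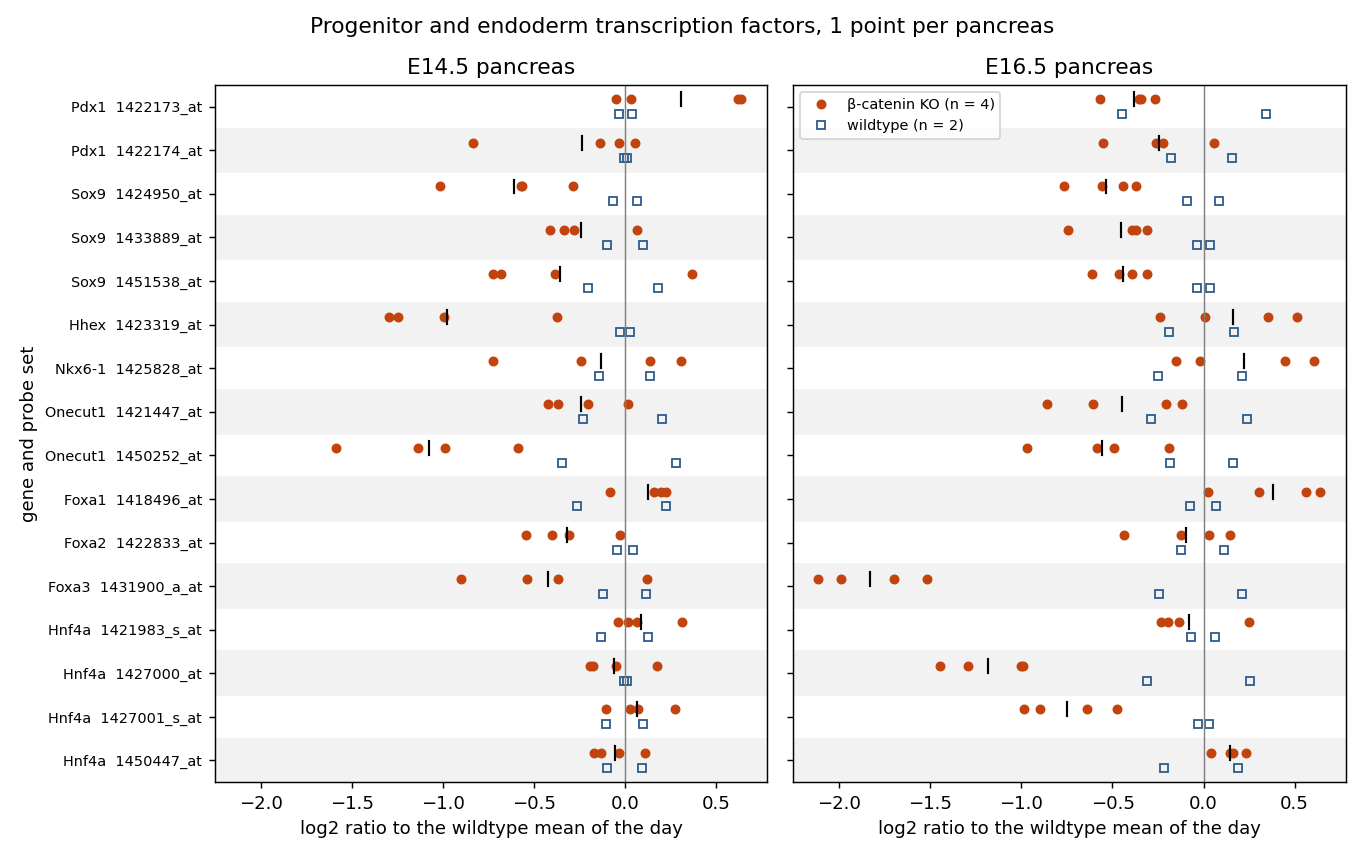
Log2 ratio to the wildtype mean of the day for each of the 16 probe sets, with 1 filled circle per β-catenin KO pancreas (n = 4) above 1 open square per wildtype pancreas (n = 2), and a black tick at the mean of the KO log2 ratios. The 4 KO values lie to the left of both wildtype values on 7 probe sets at E16.5 (Foxa3, 2 of Hnf4a, 3 of Sox9 and 1 of Onecut1) and on 3 at E14.5 (Hhex and 1 each of Sox9 and Onecut1).

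The promoters of the 2 genes that fell are given first, because both moved on the same day and because Hnf4a is known to start from 2 promoters, a distal one that is used in pancreas and a proximal one that is used in liver. RefSeq windows of build GRCm38.p6 run from 250 bases before a start site to 50 after it. Foxa3 has 1 window, chr7:19023490-19023789 on the minus strand, and Hnf4a has 2 on the plus strand of chromosome 2, the distal one at chr2:163506607-163506906 and the proximal one at chr2:163546905-163547204. Each is written 5′ to 3′ on the strand of its gene, and capitals mark a motif match.
Foxa3: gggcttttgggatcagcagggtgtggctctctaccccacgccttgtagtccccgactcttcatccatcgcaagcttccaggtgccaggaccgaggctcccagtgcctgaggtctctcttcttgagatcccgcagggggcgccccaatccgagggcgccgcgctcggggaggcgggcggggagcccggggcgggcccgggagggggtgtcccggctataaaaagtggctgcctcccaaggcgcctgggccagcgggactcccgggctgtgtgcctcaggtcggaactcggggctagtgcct
Hnf4a distal: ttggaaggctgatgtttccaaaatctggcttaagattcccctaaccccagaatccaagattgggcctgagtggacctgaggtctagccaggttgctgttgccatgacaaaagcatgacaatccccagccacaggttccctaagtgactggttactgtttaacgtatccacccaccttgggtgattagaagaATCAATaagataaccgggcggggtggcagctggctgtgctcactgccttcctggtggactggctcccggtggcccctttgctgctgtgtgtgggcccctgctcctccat
Hnf4a proximal: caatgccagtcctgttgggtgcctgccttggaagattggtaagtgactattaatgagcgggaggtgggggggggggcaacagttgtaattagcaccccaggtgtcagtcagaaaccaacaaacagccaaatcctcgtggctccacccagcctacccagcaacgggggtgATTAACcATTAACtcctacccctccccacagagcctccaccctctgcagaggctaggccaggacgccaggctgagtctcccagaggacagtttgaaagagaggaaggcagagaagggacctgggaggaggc
The letters searched on both strands were CTTTGAA and CTTTGAT for TCF/LEF, the DNA-binding partners of β-catenin, TGTTTAC and TGTTTGC for FOXA, GTTAAT for part of the HNF1 site, CAAAGTCCA and CAAAGGTCA for HNF4, and ATCGAT and ATTGAT for ONECUT. The distal Hnf4a window held 1 ONECUT match, 59 to 54 bases before the start site. The proximal window held 2 HNF1 matches, 81 to 76 and 74 to 69 bases before the start site. The Foxa3 window held 0 of these letters. Of 32851 RefSeq windows of this length, 8.4% held an ONECUT match and 7.1% the HNF1 letters. Over the 11 windows found for 8 of the 9 genes, 1 held a TCF/LEF match, in 1 of 3 Foxa2 windows, where 8.65% of all windows hold one. A match describes letters and does not show that a factor binds there, and no match says only that these letters are not in the window. Sox9 was not matched to a window.

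Of the forkhead genes, Foxa3 alone was called. Foxa3, the forkhead factor of gut endoderm and liver, has 1 probe set, 1431900_a_at. Its ratio was 0.349 in KO_591D, 0.251 in KO_541J, 0.231 in KO_541L and 0.307 in KO_591C, against 0.844 in WT_628G and 1.16 in WT_622A. All 4 KO pancreata were below both wildtype pancreata, and the highest KO was at 0.349. The mean was 0.285 ± 0.0537 in the KO (SD, n = 4), with a log2 fold change of -1.81 and a standard error of 0.25 (limma adjusted p = 0.00475), which is a fold of 0.195 to 0.416 as a 95% confidence interval. It was 113th of all probe sets by p. At E14.5 the same probe set was at 0.688 (KO_540C), 0.5345 (KO_540G), 1.085 (KO_615A) and 0.774 (KO_615B), against 0.919 in WT_522B and 1.081 in WT_522C. KO_615A was close to WT_522C and the other 3 KO were below both wildtype pancreata, and the log2 fold change of -0.42 was not called (limma adjusted p = 0.825). The KO effect of E16.5 minus that of E14.5 was -1.40 on the log2 scale (standard error 0.35, limma adjusted p = 0.150), which was not called.

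Foxa1 and Foxa2, which overlap in function in the early pancreas and lie upstream of Pdx1, were called at neither day. Foxa1 was at 1.47 in KO_591D, 1.02 in KO_541J, 1.56 in KO_541L and 1.23 in KO_591C at E16.5, against 1.05 in WT_628G and 0.9502 in WT_622A. Of the 4 KO, 3 were above both wildtype pancreata and KO_541J lay between them (log2 fold change 0.38 with a standard error of 0.18, limma adjusted p = 0.319). At E14.5 Foxa1 was at 0.942 to 1.17 in the KO, against 0.834 and 1.17 in the wildtype. Foxa2 was at 0.738 to 1.10 in the KO at E16.5, against 0.919 and 1.08 in the wildtype, a range that spans both wildtype values (log2 fold change -0.09, limma adjusted p = 0.868). The 95% confidence interval of Foxa2 at E16.5, a fold of 0.725 to 1.21, lies above that of Foxa3, and the difference between these genes was not tested. At E14.5 Foxa2 was at 0.686 to 0.978 in the KO, against 0.969 and 1.03 in the wildtype (limma adjusted p = 0.777).

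Hnf4a was called on 2 of its 4 probe sets. On 1427000_at the ratio at E16.5 was 0.498 in KO_591D, 0.407 in KO_541J, 0.367 in KO_541L and 0.503 in KO_591C, against 0.807 in WT_628G and 1.19 in WT_622A. On 1427001_s_at it was 0.719, 0.537, 0.506 and 0.641 in the same 4 KO, against 0.978 in WT_628G and 1.02 in WT_622A. The groups do not overlap on either probe set, with log2 fold changes of -1.16 and -0.75 (standard errors 0.18 and 0.15, limma adjusted p = 0.00768 and 0.0262). The other 2 probe sets, 1450447_at and 1421983_s_at, were at 1.11 ± 0.0607 and 0.956 ± 0.156 (SD, n = 4) in the KO at E16.5 and overlapped the wildtype (log2 fold changes 0.16 and -0.08, limma adjusted p = 0.615 and 0.879). The pair that fell was designed from 1 sequence and the pair that was not called from another, by the array annotation. Which exons or which of the 2 promoters each probe set reports on was not established. At E14.5 the KO means of the 4 probe sets were 0.962 to 1.07 and none was called (limma adjusted p = 0.966 to 0.983). The change in the KO effect between the days was -1.09 on the log2 scale on 1427000_at and -0.82 on 1427001_s_at (limma adjusted p = 0.114 and 0.156).

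**Figure D2:**
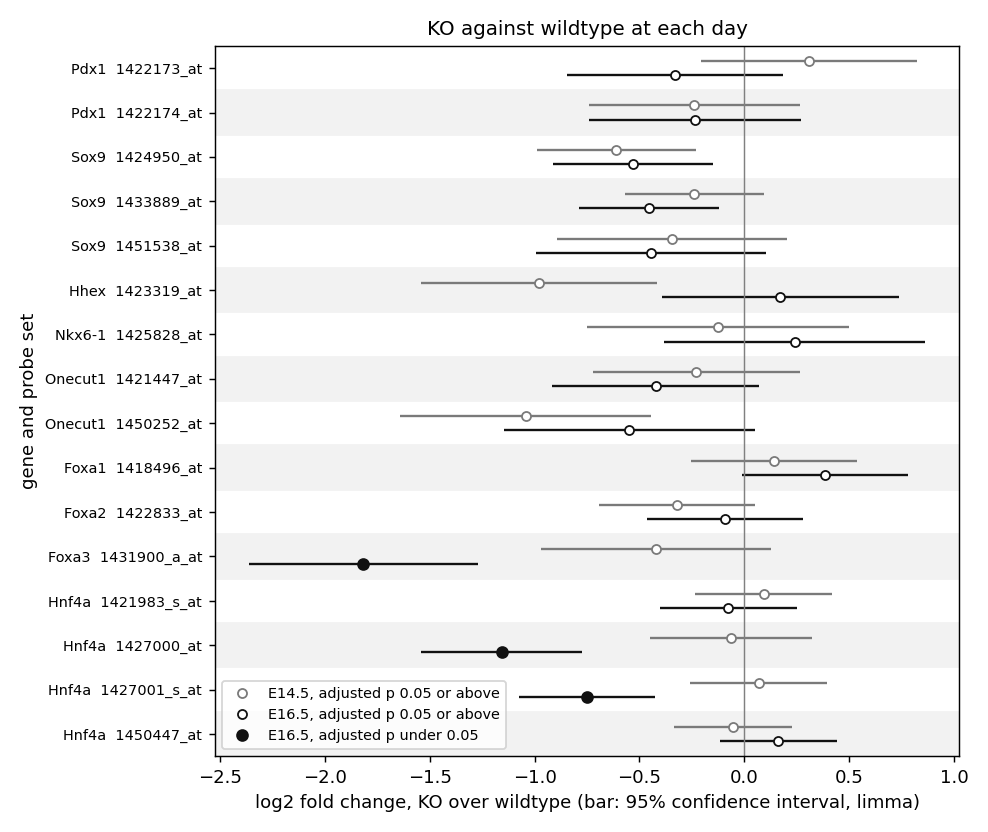
Log2 fold change of the KO over the wildtype for each probe set at E14.5 (grey) and E16.5 (black), with 95% confidence intervals from limma, filled where the adjusted p was under 0.05. The 3 filled points are Foxa3 at -1.81 and Hnf4a at -1.16 and -0.75, all at E16.5, and the lowest points at E14.5 are Onecut1 at -1.04 and Hhex at -0.98.

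The calls at E16.5 depend on the model for the variance and on the scaling. With a trended and robust variance the adjusted p of Foxa3 was 0.0719 and those of the Hnf4a probe sets 0.0684 and 0.0918, and after quantile normalization they were 0.141, 0.275 and 0.371, with log2 fold changes of -1.18, -0.77 and -0.53. The Hnf4a calls ended without WT_622A (adjusted p = 0.0659 and 0.135), and that of 1427001_s_at also without WT_628G, KO_541J or KO_541L (adjusted p = 0.0958, 0.0699 and 0.0626), while the Foxa3 call held with any 1 of the 12 pancreata left out (adjusted p at most 0.0493).

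Onecut1 and Hhex had the lowest log2 fold changes of the members at E14.5. With 1 probe set, Hhex, the homeobox gene named above for the ventral bud, was at 0.5015 (KO_540C), 0.406 (KO_540G), 0.772 (KO_615A) and 0.421 (KO_615B), against 0.980 in WT_522B and 1.02 in WT_522C. All 4 KO were below both wildtype pancreata, with KO_615A nearest to them (log2 fold change -0.98 with a standard error of 0.26, limma adjusted p = 0.516). At E16.5 Hhex was at 1.01, 0.8485, 1.43 and 1.28 in KO_591D, KO_541J, KO_541L and KO_591C, against 1.12 and 0.876 in WT_628G and WT_622A. The 2 groups overlapped there, and the KO effect of E16.5 minus that of E14.5 was 1.15 on the log2 scale (standard error 0.37, limma adjusted p = 0.265).

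Onecut1, also called HNF6, has 2 probe sets, both designed from 1 sequence. On 1450252_at it was at 0.503 (KO_540C), 0.333 (KO_540G), 0.666 (KO_615A) and 0.4545 (KO_615B) at E14.5, against 0.786 in WT_522B and 1.21 in WT_522C. The KO were again all below the wildtype, while the 2 wildtype pancreata were themselves 1.54-fold apart (log2 fold change -1.04 with a standard error of 0.27, limma adjusted p = 0.516). On 1421447_at the KO ran from 0.746 to 1.01 and overlapped wildtype values of 0.852 and 1.15 (limma adjusted p = 0.930). At E16.5 the KO means were 0.691 ± 0.151 and 0.749 ± 0.174 on the 2 probe sets (SD, n = 4; limma adjusted p = 0.351 and 0.393). Hhex and Onecut1 on 1450252_at were the 2 members that met the fold limits of the methods at E14.5, as did 3.58% of all probe sets, and Foxa3 was the 1 that met those of E16.5, as did 1.66%.

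Sox9, the factor that maintains progenitors, was lower on all 3 probe sets at both days and was not called. At E16.5 the KO ratios on 1424950_at were 0.774, 0.679, 0.588 and 0.736 in KO_591D, KO_541J, KO_541L and KO_591C, against 0.938 and 1.06 in WT_628G and WT_622A. On 1433889_at the KO ran from 0.596 to 0.807, against 1.025 and 0.9753 in the same wildtype pancreata, and on 1451538_at from 0.654 to 0.8075, against 1.02 and 0.976. The KO lay below both wildtype pancreata on each of the 3 probe sets, with log2 fold changes of -0.53, -0.45 and -0.44 (limma adjusted p = 0.139, 0.146 and 0.427). At E14.5 the KO means were 0.665 ± 0.133, 0.853 ± 0.132 and 0.819 ± 0.320 (SD, n = 4), and KO_615A was not below both wildtype pancreata on 1433889_at and 1451538_at (limma adjusted p = 0.535, 0.844 and 0.875). In all, the 4 KO lay below both wildtype pancreata on 7 of the 16 probe sets at E16.5, against 11.1% of all probe sets, and on 3 of 16 at E14.5, against 8.06%.

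Pdx1 and Nkx6-1, the homeobox factors that progenitors share with beta cells, overlapped the wildtype at both days. Pdx1 on 1422173_at was at 1.02, 0.966, 1.55 and 1.54 in KO_540C, KO_540G, KO_615A and KO_615B at E14.5, against 0.976 and 1.02 in WT_522B and WT_522C. KO_615A and KO_615B were high and the other 2 near the wildtype. On 1422174_at the same 4 KO were at 0.9085, 0.560, 1.04 and 0.978, against 1.01 and 0.994, and here KO_540G was the lowest. At E16.5 Pdx1 on 1422173_at was at 0.6735 to 0.8325 in the KO, and WT_628G at 0.732 lay inside that range while WT_622A was at 1.27. The fold of the KO over the wildtype had a 95% confidence interval of 0.557 to 1.14 there and of 0.867 to 1.77 at E14.5. Nkx6-1 was at 0.603 to 1.24 in the KO at E14.5, against 0.903 and 1.10 in the wildtype, and at 0.901 to 1.52 in the KO at E16.5, against 0.842 and 1.16 (limma adjusted p = 0.978 and 0.771). Its intervals, 0.595 to 1.41 and 0.767 to 1.82, leave changes of either sign possible.

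Single pancreata differed over the whole group of factors. At E14.5 KO_540G had the lowest value of the 4 KO on 11 of 16 probe sets and KO_615A the highest on 12, with medians of -0.48 and -0.01 in log2 ratio, and KO_540C and KO_615B were between them at -0.21 and -0.25. KO_540G also had the widest spread of all probe sets at that day, with an interquartile range of 0.41 in log2 ratio while the other KO had 0.20 to 0.28 and the wildtype 0.11 each. At E16.5 KO_541J was lowest on 10 of 16 and KO_541L on the other 6, with medians of -0.56 and -0.33, against -0.21 in KO_591D and -0.25 in KO_591C.

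Marker lists of the epithelium and of its neighbours are given beside the 9 factors, with no test of a list as a whole. Over all probe sets, limma called 2.62% on the later day (1.82% lower) and 0.0111% on the earlier. Lower KO values, whatever their p, made up 43.9% of all on the later day and 44.6% on the earlier. Whether 1 or 2 calls in a list exceed these shares was not tested. Of 15 pan-epithelial genes such as Cdh1, the E-cadherin gene, 13 were lower in the KO at each day, Cdh1 itself at 0.364 ± 0.142 at E16.5 (SD, n = 4; limma adjusted p = 0.0971). The median log2 fold change of the list was -0.29 on the earlier day and -0.51 on the later. On the probe set standing for each gene limma called 1 of them at E16.5 and 0 at E14.5. It was Spint2, an epithelial protease inhibitor, at 0.485 ± 0.113 (SD, n = 4; limma adjusted p = 0.0251), and with any probe set counted Ehf, an epithelial ETS factor, was called lower too. The median of the 16 mesenchyme genes was 0.30 at E14.5, and all of them were higher in the KO. At E16.5 it was 0.36, 12 were higher, and 2 were called, the matrix proteoglycan Lum and the collagen Col3a1, or 4 with any probe set counted (Col1a2 and Dcn as well). Their median log2 ratio per pancreas was 0.10 to 0.55 in the KO at E16.5, against -0.05 and 0.05 in the wildtype. Of 17 acinar genes 12 were called at E16.5, all lower, with a median of -2.43. Of 10 neuron and glia genes 2 were called higher (Elavl4 and Nefl), of 13 blood and immune genes 1 was called higher (Csf1r), and of 17 stomach and intestine genes 2 were called lower (Vil1 and Tff2), all at E16.5. None of 13 endocrine and none of 12 liver genes was called at either day. The part of these shifts in the values of the 9 factors was not tested, but their size can be set beside them. The median log2 ratio of the pan-epithelial genes at E16.5 was -0.17 in KO_591D, -1.08 in KO_541J, -0.94 in KO_541L and -0.13 in KO_591C, against -0.30 in WT_628G and 0.25 in WT_622A. In KO_591D and KO_591C it lay between the 2 wildtype values. The median of the 17 acinar genes was -1.52 in KO_591D and -1.95 in KO_591C, and -3.13 in KO_541J and -3.71 in KO_541L. In the same order Foxa3 was at 0.349, 0.307, 0.251 and 0.231. How far the members follow either list was not tested. With each array centred on its pan-epithelial median, a choice made after seeing the data, the log2 fold change of Foxa3 became -1.26 on the later day (limma adjusted p = 0.0303). On the same scale the 2 Hnf4a probe sets called above were at -0.61 and -0.20 (limma adjusted p = 0.240 and 0.636), the 3 Sox9 probe sets at 0.02, 0.10 and 0.11, and the 2 Onecut1 probe sets at 0.13 and 0.003.

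**Figure D3:**
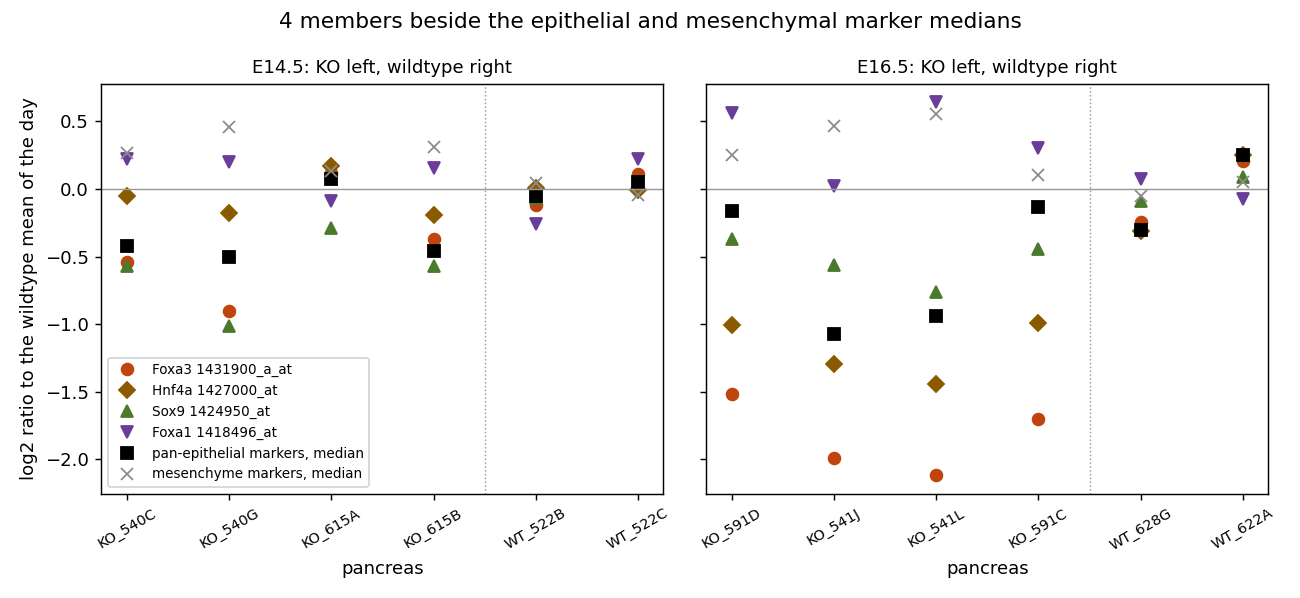
Log2 ratio of Foxa3, Hnf4a, Sox9 and Foxa1, on 1 probe set each, in every pancreas, with the median over 15 pan-epithelial and 16 mesenchyme marker genes, KO to the left of the dotted line and wildtype to the right. At E16.5 Foxa3 lies below the pan-epithelial median in each of the 4 KO. The acinar medians at that day are not drawn. They were -1.52 in KO_591D, -3.13 in KO_541J, -3.71 in KO_541L and -1.95 in KO_591C.

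Other factors of the early pancreas and endoderm are given beside the members. Of 31 listed, 28 have a probe set of their own. On the probe set standing for each gene limma called 1 lower and 0 higher at E16.5, where the median log2 fold change was 0.03. Of all probe sets 1.82% were called lower at that day and 2.62% in either direction. At E14.5 it called 0, against 0.0111% of all, with a median of 0.10. The one that fell was Gata4, a zinc finger factor of foregut and pancreas progenitors, at 0.376 ± 0.120 (SD, n = 4, limma adjusted p = 0.0458), while the other Gata4 probe set stood at 0.945 ± 0.0742. Sox11, a factor of embryonic mesenchyme and neurons as well as of progenitors, rose on 2 of its 6 probe sets, to 2.48 ± 0.690 and 2.80 ± 0.951 (SD, n = 4; limma adjusted p = 0.0380 and 0.0440), while the probe set standing for it was at 1.56 ± 0.462 and was not called. Of 33 genes that HNF4A or FOXA factors are known to bind in liver and gut, 28 were measured, and their median was 0.07 in log2 fold change at both days. The ratios do not tell whether these liver and gut genes are expressed in pancreas, so this median does not measure the activity of either factor there. At E16.5 limma called 2 of them, both lower: Vil1, the villin of the epithelial brush border, at 0.430 ± 0.0770, and Gnmt, a glycine methyltransferase, at 0.132 ± 0.0648 (SD, n = 4; limma adjusted p = 0.00356 and 0.00408). At E14.5 it called 0. Of 9 measured beta cell genes that PDX1 or NKX6-1 bind, 8 were higher at each day and 0 were called. Of 15 measured duct genes, a list that holds Sox9 and Onecut1, 12 were lower at E16.5 and 2 were called, Anxa13 and Muc1.

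The probe sets whose course over the 12 arrays was most like those that fell are given as a description. All points share arrays and the wildtype mean of their day. Foxa3 and Hnf4a are described here because they fell in the E16.5 KO. A high r with another gene that fell there follows from that choice. For Foxa3 they were those of Slc7a5, an amino acid transporter, Macrod1 and Gfus, an enzyme of GDP-fucose synthesis (Pearson r = 0.98 for each, n = 12). For Hnf4a on 1427000_at they were those of Dhtkd1, a mitochondrial dehydrogenase, Tle6, a Groucho family corepressor, and Snd1 (r = 0.99 for each, n = 12). For 1427001_s_at they were Tmed3, Slc35f5 and Herpud1, of which the first and the last act in the secretory pathway (r = 0.98 for each, n = 12). Set against the other 8 factors on 1 probe set each, Foxa3 was most like Hnf4a on 1427000_at (r = 0.96, n = 12) and least like Foxa1 (r = -0.66, n = 12).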

How the data were processed

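RNA from 12 embryonic pancreata was amplified in 2 rounds and hybridized to Affymetrix mouse whole-genome arrays. The authors applied RMA in GeneSpring and deposited, for each probe set, the linear ratio of its signal to the average of both wildtype arrays from that day. The 2 wildtype ratios of a day sum to 2 within 3e-07. A comparison of levels between days is therefore not possible, and the number of arrays limits the precision. Of 45101 probe sets, 64 controls were set aside. Gene names came from the platform annotation.

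The log2 of each ratio entered 1 linear model for the 4 groups (limma 3.58.1, R 4.3.3, residual degrees of freedom 8), which was tested for KO against wildtype at each day and for the difference between these effects, with Benjamini-Hochberg adjustment over 45037 probe sets. The fit was tested on simulated data. The labels do not say whether embryos shared a litter, so p values measure the spread between these samples.

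The members, lists and tests were chosen with earlier results of these data known. Named were all members, at most 10 called genes of each factor list, at most 4 genes of each marker list (called ones first, in order of p), and the 3 genes most correlated with each called member. In lists 1 probe set, chosen by its name, stood for a gene. Alternatives were other variance models and scalings, the methods' t-test and fold limits, array weights (lowest, at 0.282, for KO_540G), the number in the array names as a random block, the mean over probe sets and leaving out single arrays. Figures used matplotlib 3.10.9.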

Additional observations from a re-analysis of the deposited data

How the results depend on the processing

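The members called at E16.5 were 3 in limma, against 2.62% of all probe sets. They were 0 with a trended and robust variance (0.191% of all) and 0 after quantile normalization (0.158%). The methods' t-test, run here for each day with Benjamini-Hochberg adjustment over all probe sets, called 0 members and 0 of all probe sets. The study adjusted only over probe sets that had already passed its fold limits. This setting is therefore not the study's full procedure and does not reproduce its list. Foxa3 was the 1 called with each day fitted alone (0.353% of all), with pan-epithelial centring (3.31%) and by the methods' fold limits (1.66%). The methods' t-test without adjustment gave 6, against 12.3% of all. Leaving out 1 array gave 1 to 3, against 0.897% to 6.35% of all. At E14.5 the methods' t-test without adjustment and the fold limits gave 2 each (Hhex and Onecut1), against 5.04% and 3.58% of all. All other settings gave 0. The difference between the days gave 0 members in limma (0.349% of all), with 4 at an unadjusted p under 0.05 (10.4% of all). It gave 3 with array weights (Foxa3 and 2 Hnf4a probe sets), against 1.29% of all. With an array left out it gave 0 to 1, against 0.0178% to 0.906% of all. The number in the array names as a random block changed no member's call. The estimated correlation was negative (-0.0876), and each number lies within the KO or the wildtype of a single day. This setting therefore cannot show whether the number matters. No paired analysis was possible because no number in the names occurs in both KO and wildtype.

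The signs that turned were those of fold changes that were not called. Under pan-epithelial centring, chosen after seeing the data, the log2 fold changes at E14.5 were 0.0882 for Pdx1 1422174_at, 0.0881 for Sox9 1433889_at, 0.20 for Nkx6-1, 0.10 for Onecut1 1421447_at, 0.0051 for Foxa2, and 0.26 and 0.27 for Hnf4a 1427000_at and 1450447_at. At E16.5 they were 0.22 and 0.32 for Pdx1, 0.0206, 0.10 and 0.11 for Sox9, 0.13 and 0.0032 for Onecut1, 0.46 for Foxa2 and 0.48 for Hnf4a 1421983_s_at. Array weights gave 0.0219 for Nkx6-1 at E14.5. Leaving out 1 array turned the sign at E14.5 for Nkx6-1 (-0.27 to 0.0729), Foxa1 (-0.10 to 0.39) and Hnf4a 1421983_s_at (-0.0355 to 0.22), 1427001_s_at (-0.0354 to 0.17) and 1450447_at (-0.15 to 0.0432). At E16.5 it did so for Pdx1 1422173_at (-0.73 to 0.0659), Hhex (-0.0089 to 0.35), Foxa2 (-0.21 to 0.0243) and Hnf4a 1450447_at (-0.0439 to 0.37). With 2 wildtype pancreata per day, a member that was not called may still differ.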

Other observations

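Among the E16.5 KO, array names pair KO_541J with KO_541L and KO_591D with KO_591C by a number. At E14.5 it pairs KO_540C with KO_540G, KO_615A with KO_615B, and WT_522B with WT_522C. What it marks is not given in the sources used here, and no test was made. Over 17 acinar genes the log2 ratio had a median of -3.13 in KO_541J and -3.71 in KO_541L, and -1.52 in KO_591D and -1.95 in KO_591C, against 0.09 in WT_628G and -0.09 in WT_622A. Foxa3 was also lower in KO_541J and KO_541L, at 0.251 and 0.231 there and at 0.349 and 0.307 in KO_591D and KO_591C. On 1427000_at Hnf4a was at 0.407 and 0.367 in KO_541J and KO_541L, and at 0.498 and 0.503 in KO_591D and KO_591C.

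Isl1, a LIM homeobox factor of endocrine cells and of the mesenchyme around the pancreas, was at 2.00 ± 0.458 in the KO at E14.5 and 2.05 ± 0.857 at E16.5 (SD, n = 4; limma adjusted p = 0.629 and 0.183) on 1 of its 2 probe sets. On the other it was at 1.36 ± 0.544 and 2.41 ± 0.965 (SD, n = 4; limma adjusted p = 0.945 and 0.176). It stands outside the rule for named genes and was chosen after its values were seen. In the 32 groups of 4 KO values examined, no single pancreas stood apart from the other 3 by Dixon's gap ratio.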
